A study of Mus musculus with 6 samples.

Results

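The genes of DNA replication and mitosis described here are 36 of the 23284 gene symbols in the count table: 14 replication genes (Mcm2 to Mcm7, Pcna, Tyms, Rrm2, E2f1, E2f2, E2f7, Ccne1 and Ccne2) and 22 mitotic genes (Cdk1, Cdk2, Ccna2, Ccnb1, Ccnb2, Bub1, Bub1b, Cdc20, Ube2c, Aurka, Aurkb, Plk1, Birc5, Cenpa, Cenpe, Cenpf, Kif11, Kif20a, Nusap1, Tpx2, Mki67 and Top2a). They were taken by name, and the rule uses no measured value, but the list was chosen with earlier results of these data known. Cdk2, which acts at entry into DNA replication, was counted among the 22. RNA was sequenced from epithelium of the esophagus of mouse embryos at E12.5. The p63KO group (3 libraries) was homozygous for Trp63-CreERT2, a knock-in allele at the p63 gene, and the control group (3 libraries) came from littermates, titled WT by the submitters, whose alleles are not spelled out in the labels. The labels do not say whether a library holds 1 embryo or several, and p-values therefore speak only of the spread among these 6 libraries, which may be technical. All 36 genes passed the filter on low counts, with 258 to 19325 reads per gene and library.

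Cells commit to division when E2F transcription factors are released from the pocket proteins of the retinoblastoma family and switch on the genes of DNA synthesis. The E cyclins with Cdk2 start replication, the MCM helicase opens the double helix, the Pcna clamp holds the polymerases on the template, and Tyms and Rrm2 make nucleotide precursors. A later wave, driven through the B-Myb and FoxM1 factors, produces the cyclins, kinases, kinesins and kinetochore proteins of mitosis. In stratified epithelia p63 is known for maintaining the proliferating basal layer, and proliferation genes are commonly read as a measure of how many cells of a tissue are cycling.

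Differences of the 36 genes between p63KO and control were below 2-fold throughout, and more genes were lower than higher. Their median log2 fold change was -0.12, which left 92.2% of the control level, against a median of -0.01 over the 13849 genes tested. Beyond 2-fold lay 0 of the 36 and 13% of all genes. The typical size of change, taken without sign, was 0.13 on the log2 scale for the members and 0.20 for all genes. All genes include many with fewer reads than any member, whose fitted changes are noisier. In the edgeR quasi-likelihood test with adjustment over all genes, 9 members passed at an adjusted p under 0.05: 7 were lower (E2f7, Mki67, Cdc20, Mcm4, Cenpe, Mcm5 and Tyms) and 2 were higher (E2f2 and Ube2c). That is 25% of the members, beside 29.6% of all genes tested (14.3% lower and 15.3% higher), so the total share of members called was near the background. In bulk RNA, fewer cells of a type and less RNA per cell cannot be told apart.

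The values of the members pointed more often down than up. The fitted change was below 0 for 27 of the 36 members, and for 52.1% of all genes. The members varied together between libraries, with replicate 1 lowest of its group for 30 of them in control and 28 in p63KO. Their signs are therefore not 36 separate observations. In 11 members every p63KO library lay below every control library, and in 3 every p63KO library lay above; over all genes the groups were apart for 44.1% (22.2% below and 21.8% above). The 95% interval of the log2 fold change lay within 1.5-fold in both directions for 33 of the 36, beside 56.5% of all genes. It lay within 1.25-fold for 22, of which 18 were mitotic genes, beside 28.3% of all genes. The exceptions to the 1.5-fold bound were E2f7, E2f2 and Mki67, whose intervals reached further. Interval width depends on read depth as well as on change. The median SE was 0.08 for the members and 0.11 for all genes. The lowest mean level was 18.2 CPM among the members and 0.38 CPM among all genes. The shares therefore do not show that the members were steadier than other genes of like abundance.

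**Figure D1:**
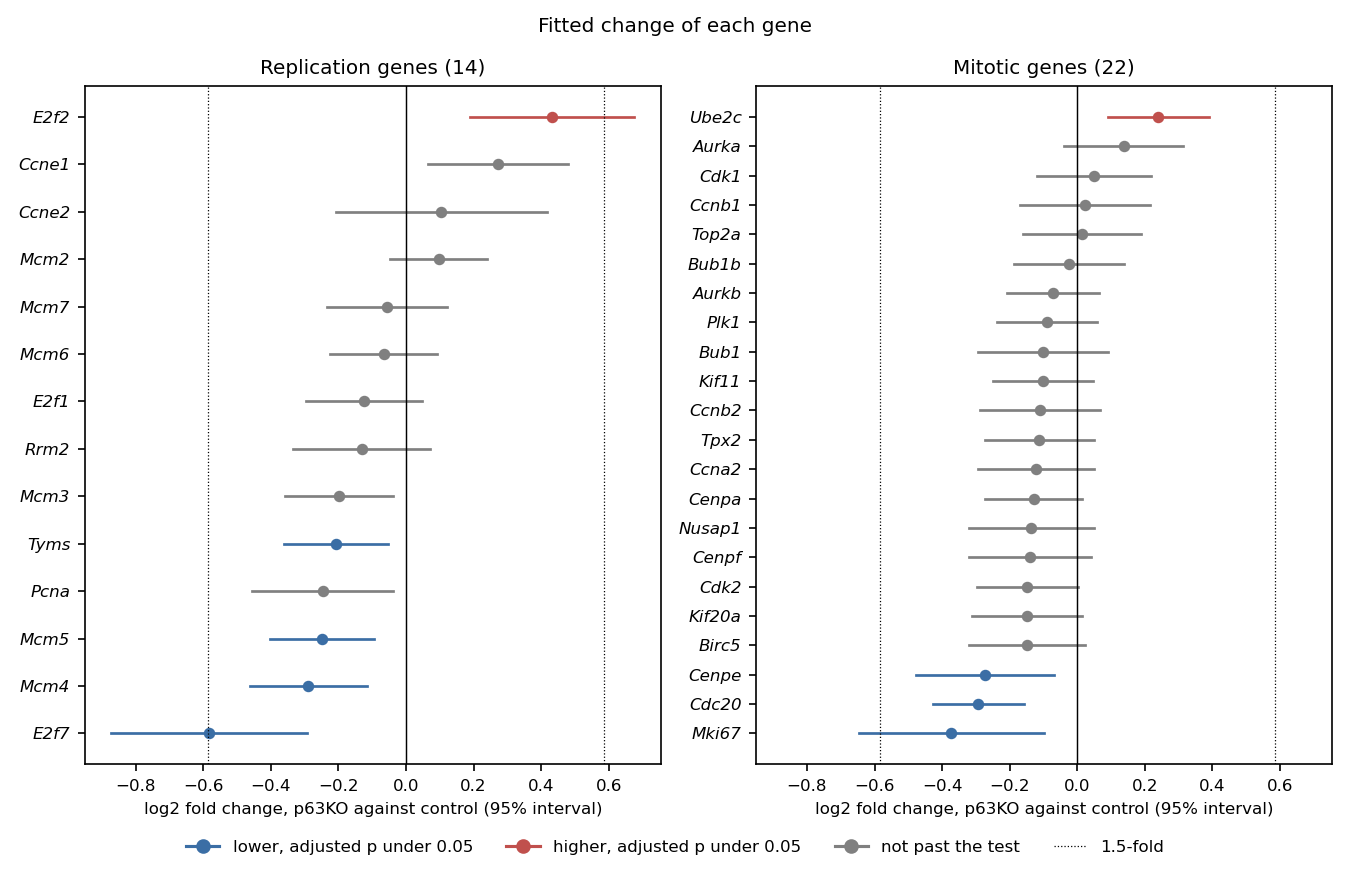
Fitted log2 fold change of p63KO against control (horizontal axis) for the 14 replication genes (left) and 22 mitotic genes (right), with bars for the 95% interval and colours for the edgeR call. E2f7 at -0.58 and E2f2 at 0.43 are the outermost points, and most mitotic genes sit between -0.15 and 0.

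Trp63 was 551 to 674 CPM (the standard depth-scaled read count, here with TMM factors) in control and 62.2 to 76.7 CPM in p63KO, so each library matched its label. Total counts lay between 13335328 and 20093838. Control replicate 3 held 24 genes at more than 4-fold the level of all other libraries (with 1 CPM added to those, and above 5 CPM), and the other 5 libraries held none. The 10 epithelial markers were all present, with summed levels of 5566 to 6340.0 CPM in control and 4449 to 4625 CPM in p63KO. Of these, Krt8, Krt18, Krt19 and Cldn6 rose, and Cdh1, Trp63, Krt5 and Krt15 fell. The lower sum was carried by Trp63, Krt15, Krt5 and Cdh1. Krt15 was 902 to 1571 CPM in control and 191 to 286 CPM in p63KO. Krt5 was 200 to 298 CPM in control and 2.01 to 10.9 CPM in p63KO. Cdh1 was 873 to 929 CPM in control and 664 to 709 CPM in p63KO. The epithelial markers did not fall as a whole. Markers of other cells also moved with the groups. The 10 neuroendocrine markers, all of which rose, summed to 3.12 to 7.89 CPM in control and 469 to 595 CPM in p63KO. The 10 mesenchyme markers summed to 448 to 530.5 CPM and 1256 to 1651 CPM, but Dcn alone carried that rise (114 to 211 CPM in control and 1053 to 1342 CPM in p63KO). Without Dcn the mesenchyme sums were 237 to 384 CPM and 142 to 309 CPM, overlapping; Twist1 also rose, and Col1a1, Col3a1, Pdgfra and Pdgfrb fell. The 10 enteric neuron and neural crest markers summed to 24.01 to 42.8 CPM and 251 to 322 CPM; Elavl3, Elavl4, Tubb3, Ret and Stmn2 rose, and Ednrb fell. The 10 erythroid markers, of which Hba-a1, Hba-a2 and Hbb-b1 had no count in any library, summed to 5.75 to 42.0 CPM and 12.3 to 25.9 CPM, and 1 of them fell. Endothelial markers (Flt4 rose, 1 of 10) summed to 8.54 to 13.5 CPM and 11.0 to 14.6 CPM. Muscle markers summed to 5.52 to 8.38 CPM and 11.0 to 11.3 CPM, a rise that Pax3 alone carried; without it the sums were 5.46 to 8.32 CPM and 2.01 to 5.96 CPM. The part of these cell populations in the changes of the members was not tested.

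Among the replication genes, the E2F factors held the largest changes, and they moved in opposite directions. E2f7, an atypical E2F that represses E2F targets late in S phase, was 63.2, 71.9 and 61.3 CPM in control and 35.6, 51.9 and 43.7 CPM in p63KO. The groups did not overlap, and p63KO replicate 1 was the lowest library. E2f7 fell to 66.8% of control (log2 fold change -0.58, SE 0.13, 95% interval -0.87 to -0.29, edgeR adjusted p = 0.00785). E2f2, an activator of the same targets, was 29.6, 31.8 and 27.8 CPM in control and 34.7, 44.1 and 41.9 CPM in p63KO, every p63KO library above every control library. It rose to 135.0% of control (log2 fold change 0.43, SE 0.11, 95% interval 0.19 to 0.68, edgeR adjusted p = 0.0144); without p63KO replicate 3 its adjusted p was 0.0574, while the E2f7 call held with each library left out. E2f1, the other activator in the list, was at -0.12 (95% interval -0.29 to 0.05) and did not pass the test, although its p63KO libraries lay just below its control libraries. Since scaling cancels within a library, the ratio of E2f2 to E2f7 counts was also taken: it was 0.47, 0.44 and 0.45 in control and 0.97, 0.85 and 0.96 in p63KO. These ratios compare reads, not molecules, and the genes were set side by side after their values were seen.

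The promoters of these genes are shown because E2F factors act through sites in their own promoters and in those of their targets. RefSeq start sites on build GRCm38.p6 were used, and each line runs 5′ to 3′ toward the start, in lower case, cut where an annotated exon begins. Capitals mark matches on either strand to the E2F motif (TTTGGCGC, TTTCCCGC, TTTCGCGC or TTTGCCGC) or to the CCAAT box (CCAAT, read as ATTGG on the other strand).
E2f7 chr10:110745189-110745438 (+ strand): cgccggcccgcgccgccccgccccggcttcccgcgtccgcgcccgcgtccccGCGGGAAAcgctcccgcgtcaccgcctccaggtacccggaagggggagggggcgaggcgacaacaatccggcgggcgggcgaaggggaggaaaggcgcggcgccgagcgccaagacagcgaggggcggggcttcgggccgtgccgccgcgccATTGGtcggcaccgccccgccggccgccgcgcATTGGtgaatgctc
E2f2 chr4:136172024-136172273 (+ strand): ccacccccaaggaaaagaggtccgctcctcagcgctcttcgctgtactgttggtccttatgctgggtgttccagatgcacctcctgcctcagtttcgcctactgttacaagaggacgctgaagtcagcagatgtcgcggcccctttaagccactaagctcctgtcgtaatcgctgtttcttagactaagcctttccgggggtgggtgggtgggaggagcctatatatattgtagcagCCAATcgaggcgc
Mcm5 chr8:75109259-75109508 (+ strand): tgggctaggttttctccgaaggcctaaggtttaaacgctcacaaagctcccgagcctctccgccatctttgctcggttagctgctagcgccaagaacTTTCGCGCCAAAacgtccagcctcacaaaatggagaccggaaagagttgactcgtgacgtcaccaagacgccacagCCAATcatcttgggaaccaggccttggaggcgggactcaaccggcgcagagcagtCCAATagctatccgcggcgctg
E2f7 holds 1 E2F match far from the start and 2 CCAAT boxes close to it, and the E2f2 stretch, from the first of its 2 listed starts, holds 1 CCAAT box; its E2F match lies beyond the start and is not shown. The Mcm5 stretch holds 2 E2F matches on opposite strands that overlap, followed by 2 CCAAT boxes. A match is a string of letters and not a measured site, and no binding was measured here.

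The MCM2-7 helicase genes encode 6 subunits of 1 ring. Of these, 2 fell and 4 did not pass. The share called was 33.3%, near the 29.6% of all genes tested (14.3% lower and 15.3% higher). Mcm4 was 281, 303 and 302 CPM in control and 216, 253 and 256 CPM in p63KO, with no overlap, and fell to 81.9% of control (log2 fold change -0.29, SE 0.08, 95% interval -0.46 to -0.12, edgeR adjusted p = 0.0197). Mcm5, whose promoter is shown above, was 283, 321 and 319 CPM in control and 249, 269 and 259.8 CPM in p63KO, also without overlap, and fell to 84.2% (log2 fold change -0.25, SE 0.07, 95% interval -0.40 to -0.09, edgeR adjusted p = 0.0226). The Mcm4 call was lost without control replicate 2 (adjusted p = 0.0554), and the Mcm5 call without any 1 library except control replicate 1 (0.0601 to 0.0755). Mcm3 was 256, 276 and 281 CPM in control and 218, 252 and 239 CPM in p63KO; its groups were apart, yet it did not pass (log2 fold change -0.20, SE 0.07, 95% interval -0.36 to -0.04, edgeR adjusted p = 0.0634; in DESeq2, 0.043). Mcm2 was 293, 320.2 and 306 CPM in control and 312, 346 and 326 CPM in p63KO, and here the groups overlapped with p63KO on the higher side (log2 fold change 0.10, SE 0.06, 95% interval -0.05 to 0.24, edgeR adjusted p = 0.298). Mcm6 was 315, 336 and 357 CPM in control and 299.7, 329.7 and 333 CPM in p63KO, overlapping, at -0.07 (95% interval -0.22 to 0.09). Mcm7 lay at -0.06 (95% interval -0.23 to 0.12). The ratio of Mcm4 to Mcm2 counts within a library was 0.96, 0.95 and 0.99 in control and 0.69, 0.73 and 0.79 in p63KO, with no overlap; this pair too was chosen after its values were seen.

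Of the clamp and nucleotide synthesis genes, 1 of 3 fell, beside 14.3% of all genes tested called lower. Tyms, thymidylate synthase, was 86.5, 94.2 and 94.1 CPM in control and 75.1, 83.0 and 80.2 CPM in p63KO, without overlap, and fell to 86.7% of control (log2 fold change -0.21, SE 0.07, 95% interval -0.36 to -0.05, edgeR adjusted p = 0.0488). This call stood at the edge of the threshold: it was lost in DESeq2, in limma-voom, with no filter on low counts and with 3 other scalings (adjusted p = 0.0515 to 0.0829), and with 5 of the 6 libraries left out in turn (0.0854 to 0.134). Pcna, the sliding clamp, was 104, 122 and 125 CPM in control and 89.0, 106 and 100.3 CPM in p63KO; p63KO replicate 2 reached above control replicate 1, and the gene did not pass (log2 fold change -0.25, SE 0.09, 95% interval -0.46 to -0.04, edgeR adjusted p = 0.0768; without control replicate 1, 0.0262). Rrm2, the regulated subunit of ribonucleotide reductase, was between 155.6 and 188 CPM in control and between 140.2 and 166 CPM in p63KO, overlapping, with a log2 fold change of -0.13 (95% interval -0.33 to 0.07). Reads of Pcna and Tyms could be shared with the processed copies Pcna-ps1, Pcna-ps2 and Tyms-ps, and those of Ccnb1 and Ccnb2 with Ccnb1-ps and Ccnb2-ps. The way such reads were counted is not stated in the labels, and these 4 values are uncertain to that extent. Only copies that carry the gene's own name with the ending ps were searched for, so copies of any member under other names were not covered.

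The E cyclins, partners of Cdk2 at the start of S phase, lay above control in the fit. Ccne1 was 38.6, 46.8 and 47.3 CPM in control and 51.2, 56.0 and 53.2 CPM in p63KO, with every p63KO library above every control library (log2 fold change 0.27, SE 0.09, 95% interval 0.07 to 0.48, edgeR adjusted p = 0.0511). It missed the threshold in edgeR and passed it in DESeq2 (adjusted p = 0.047). Ccne2 was 17.1 to 18.2 CPM in control and 15.2 to 20.7 CPM in p63KO, overlapping, at 0.11 with the widest interval of all members (-0.21 to 0.42). Cdk2 itself was 126, 135 and 121 CPM in control and 112, 121 and 112 CPM in p63KO; the groups were apart by a narrow margin and the gene did not pass (log2 fold change -0.15, SE 0.07, edgeR adjusted p = 0.13).

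In all, 1 of the 14 replication genes rose, 4 fell and 9 did not pass, with a median log2 fold change of -0.13. The share called was 35.7%, beside 29.6% of all genes tested (14.3% lower and 15.3% higher).

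**Figure D2:**
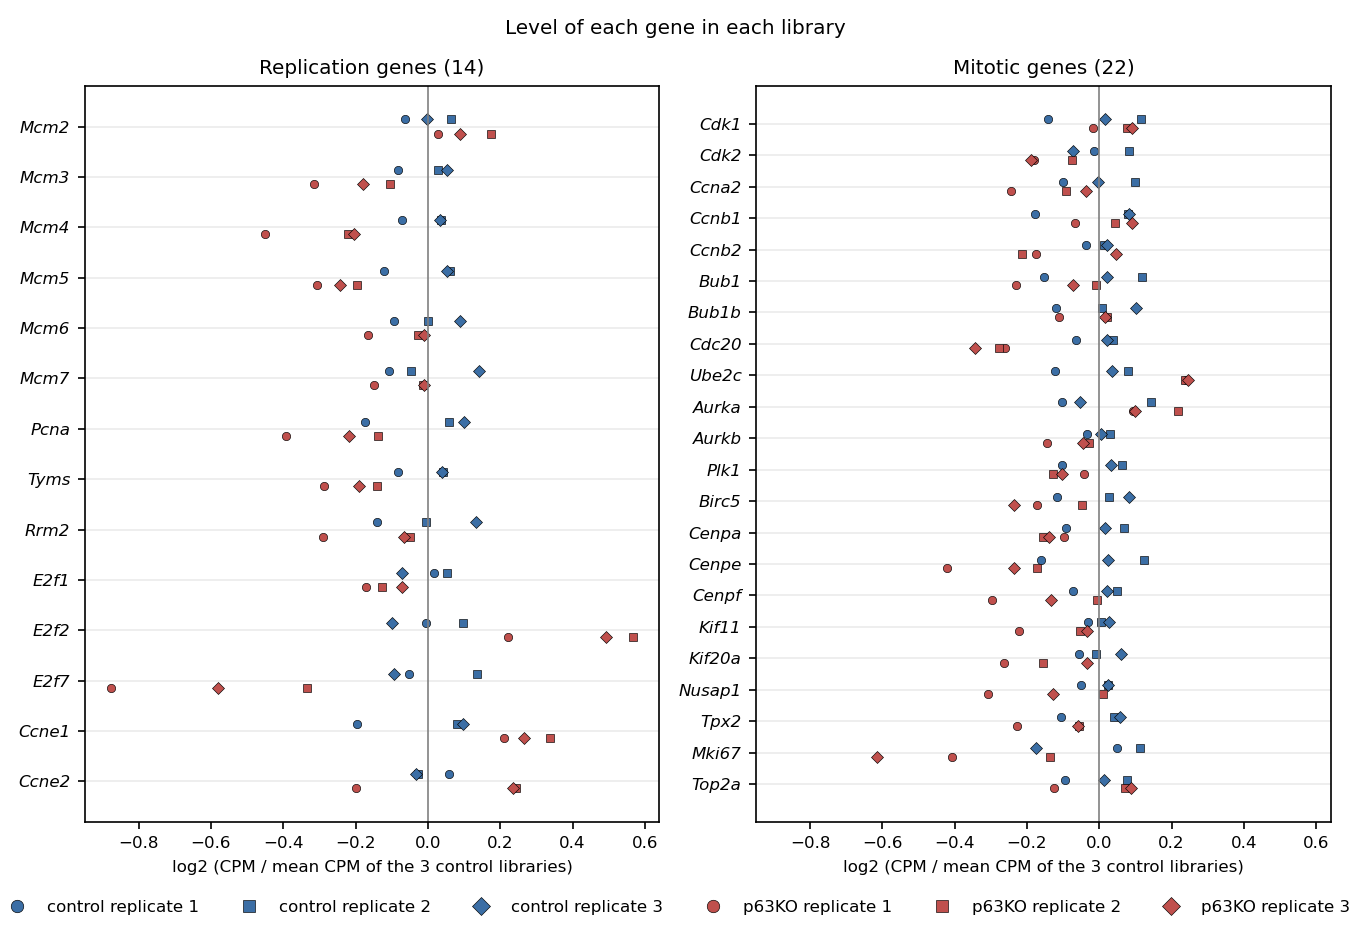
Level of every gene in each of the 6 libraries as log2 of CPM over the mean of the 3 control libraries (horizontal axis); blue is control, red is p63KO, and the symbol gives the replicate number. The p63KO libraries of E2f7, Mcm4 and Cdc20 lie left of all control libraries, those of E2f2, Ccne1 and Ube2c lie right, and replicate 1 of either group is often the leftmost point of its colour.

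Of the 22 mitotic genes, 1 rose, 3 fell and 18 did not pass, with a median log2 fold change of -0.11. The share called was 18.2%, beside 29.6% of all genes tested, and the 2 classes were not tested against each other. The 2 lowest p-values of the class belonged to genes that work with the anaphase-promoting complex, the ubiquitin ligase whose activity ends mitosis, and the changes ran in opposite directions. Cdc20, the activator of that ligase and the target of the spindle checkpoint, was 146, 157 and 155 CPM in control and 128, 126 and 120.3 CPM in p63KO. The groups did not overlap, and Cdc20 fell to 81.6% of control (log2 fold change -0.29, SE 0.06, 95% interval -0.43 to -0.16, edgeR adjusted p = 0.00516), a call kept with each library left out. Ube2c, the ubiquitin-conjugating enzyme of the same ligase, was 142, 164 and 159 CPM in control and 183, 182 and 184 CPM in p63KO, all p63KO libraries above all control libraries. It rose to 118.1% (log2 fold change 0.24, SE 0.07, 95% interval 0.09 to 0.39, edgeR adjusted p = 0.0227), but it no longer passed when control replicate 1 was left out (adjusted p = 0.0712), nor when any 1 of the p63KO libraries was (0.0522 to 0.0687). The ratio of Ube2c to Cdc20 counts within a library was 0.97, 1.04 and 1.02 in control and 1.43, 1.45 and 1.53 in p63KO, again chosen after the values were seen. The checkpoint kinase genes Bub1 and Bub1b were at -0.10 (95% interval -0.29 to 0.09) and -0.02 (-0.19 to 0.14), neither past the test.

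Mki67, the Ki-67 proliferation antigen that coats mitotic chromosomes, had the largest fall and the largest SE of the 22 mitotic genes. It was 830.3, 868 and 712 CPM in control and 605, 731 and 524 CPM in p63KO, so p63KO replicate 2 lay above control replicate 3 and the groups overlapped. Mki67 fell to 77.2% of control (log2 fold change -0.37, SE 0.12, 95% interval -0.65 to -0.10, edgeR adjusted p = 0.0455). Leaving out control replicate 1, control replicate 2, p63KO replicate 1 or p63KO replicate 3 ended the call (adjusted p = 0.114, 0.123, 0.128 and 0.148), as did robust dispersions, upper-quartile factors and library totals (0.0512 to 0.0516). Top2a, the topoisomerase that untangles sister chromatids, was 876, 987 and 946 CPM in control and 858, 983 and 995 CPM in p63KO; these groups overlapped almost fully, at 0.01 (95% interval -0.16 to 0.19). A test of the difference between Mki67 and Top2a was not run.

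Upstream stretches of the 3 mitotic genes below are shown for comparison with the promoters above. Capitals mark the CHR element (cell cycle genes homology region; TTTGAA or TTCGAA, either strand), through which the mitotic program is known to be timed, and the CCAAT box.
Cdc20 chr4:118437353-118437593 (- strand): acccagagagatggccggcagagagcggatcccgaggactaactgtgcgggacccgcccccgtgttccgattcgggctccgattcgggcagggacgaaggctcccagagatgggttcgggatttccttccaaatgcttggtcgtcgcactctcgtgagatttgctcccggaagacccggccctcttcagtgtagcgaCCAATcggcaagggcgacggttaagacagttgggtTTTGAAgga
Ube2c chr2:164769679-164769897 (+ strand): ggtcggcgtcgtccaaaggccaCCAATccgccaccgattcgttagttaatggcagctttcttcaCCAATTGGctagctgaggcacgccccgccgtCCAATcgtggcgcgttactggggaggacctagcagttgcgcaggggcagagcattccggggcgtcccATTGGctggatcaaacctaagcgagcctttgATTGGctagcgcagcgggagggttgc
Mki67 chr7:135716380-135716629 (- strand): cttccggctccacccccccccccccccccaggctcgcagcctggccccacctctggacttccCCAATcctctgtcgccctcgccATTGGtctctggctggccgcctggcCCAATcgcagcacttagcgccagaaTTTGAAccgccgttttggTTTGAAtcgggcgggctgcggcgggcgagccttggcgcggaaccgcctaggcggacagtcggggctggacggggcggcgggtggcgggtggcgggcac
The Cdc20 stretch holds a CCAAT box followed by a CHR match near the start. Mki67 holds 3 CCAAT boxes and then 2 CHR matches. Ube2c holds 6 CCAAT matches, 2 of them overlapping on opposite strands, and no CHR match in the bases shown. The promoters of all 3, of which Cdc20 and Mki67 fell and Ube2c rose, hold CCAAT boxes, as do 84.4% of the promoter windows of the members.

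Motif matches are given here as a description, with no test between the classes. RefSeq windows of 300 bases (250 before to 50 after a start) were listed for 30 of the 36 members, in 32 windows; Mcm4, Ccne2, Ccna2, Aurkb, Kif20a and Tpx2 had none. An E2F match stood in 6 of 14 windows of replication genes (42.9%) and 2 of 18 of mitotic genes (11.1%), beside 2.26% of all 32851 windows and 3.78% of the windows of genes tested here. A CHR match stood in 3 replication windows (21.4%) and 13 mitotic windows (72.2%), beside 19.2% of all and 13.4% of those of genes tested. CCAAT boxes, the most frequent motif in both classes, stood in 11 (78.6%) and 16 (88.9%), beside 37.4% in both backgrounds. The shares depend on the window: in the 250 bases before the start alone, a CHR match stood in 44.4% of mitotic and 21.4% of replication windows (11.9% for genes tested), and an E2F match in 11.1% and 28.6% (3.15% for genes tested). Among the 95 matches in member windows, 4 pairs overlapped. Of the members with an E2F match, Mcm5 and E2f7 fell, E2f2 rose, and Mcm3, Mcm6, Mcm7, Cdk1 and Cdk2 did not pass. The E2f2 match lies after the first of its 2 starts. Cdc20 and Mki67 fell and Ube2c rose with CHR and CCAAT matches in their windows, and most members with a CHR match did not pass. Whether holding a motif goes with a change was not tested.

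**Figure D3:**
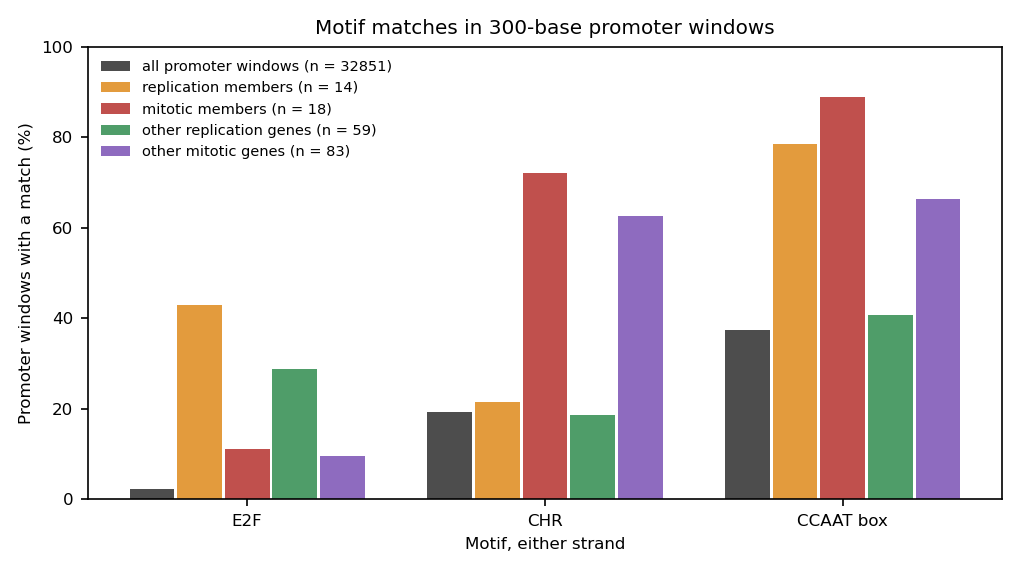
Share of 300-base promoter windows (vertical axis, percent) with at least 1 match to each motif, for all windows, the members and the wider pathway lists. CHR matches stand in 72.2% of mitotic windows and 21.4% of replication windows, and E2F matches in 11.1% and 42.9%.

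Centromere and kinetochore genes lay below control in the fit, and 1 of 3 passed (33.3%, beside 29.6% of all genes tested). Cenpe, the kinesin that carries chromosomes to the spindle equator, was 177, 216 and 202 CPM in control and 148, 176 and 169 CPM in p63KO. The highest p63KO library was just below the lowest control library, and Cenpe fell to 82.8% (log2 fold change -0.27, SE 0.09, 95% interval -0.48 to -0.07, edgeR adjusted p = 0.0495). The call held without control replicate 1 and was lost without any other 1 library (adjusted p = 0.0706 to 0.151), and with limma-voom, RLE factors, upper-quartile factors or library totals (0.05 to 0.0638). Cenpa, the histone variant that marks the centromere, was 105, 118 and 113 CPM in control and 105, 101 and 102 CPM in p63KO, apart by under 1 CPM, and did not pass (log2 fold change -0.13, SE 0.06, 95% interval -0.27 to 0.01, edgeR adjusted p = 0.169). Cenpf, a large kinetochore protein of late G2 cells, was 333, 363 and 355 CPM in control and 286, 349 and 319 CPM in p63KO, overlapping (log2 fold change -0.14, SE 0.08, 95% interval -0.32 to 0.04, edgeR adjusted p = 0.231).

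The remaining mitotic genes showed no change past the test. The mitotic cyclin-dependent kinase gene Cdk1 was at 0.05 (95% interval -0.12 to 0.22), and its cyclins Ccna2, Ccnb1 and Ccnb2 were at -0.12, 0.02 and -0.11. The kinase genes Aurka and Plk1, of spindle assembly, were at 0.14 and -0.09; Aurkb and Birc5, 2 subunits of the chromosomal passenger complex, were at -0.07 and -0.15. Kif20a, a kinesin of cytokinesis, was 149, 154 and 162 CPM in control and 129, 139 and 152 CPM in p63KO, overlapping only between p63KO replicate 3 and control replicate 1, and did not pass (log2 fold change -0.15, SE 0.07, 95% interval -0.31 to 0.02, edgeR adjusted p = 0.164). Kif11, the motor that separates the spindle poles, Nusap1, a microtubule bundling protein, and Tpx2, the activator of Aurora A, were at -0.10, -0.14 and -0.11; the Kif11 groups were apart by under 1 CPM. In this group of cyclins, kinases and spindle genes (13 genes, Cdk2 included and Bub1 and Bub1b not), the interval of each gene stayed within 1.5-fold in both directions.

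Replicate 1 was the lowest library for most members in both groups. Control replicate 1 had the lowest value of its group for 30 of the 36 members and p63KO replicate 1 for 28, whereas over all genes they were lowest for 29.1% and 34.6%. For the replication genes p63KO replicate 1 was lowest in 14 of 14. The median of log2 (CPM over the control mean) of the replication genes was -0.08, 0.05 and 0.05 in control, in replicate order, and -0.24, -0.08 and -0.07 in p63KO. For the mitotic genes it was -0.10, 0.07 and 0.02 in control and -0.18, -0.05 and -0.05 in p63KO. In both classes the medians of p63KO replicates 2 and 3 lay above that of control replicate 1 and below those of the other control libraries. Without p63KO replicate 1, the median log2 fold change was -0.08 for replication genes and -0.06 for mitotic genes, and 4 members were called (Mcm4, E2f2, E2f7 and Cdc20). Without p63KO replicate 2 it was 5, without p63KO replicate 3 it was 3 (Mcm4, E2f7 and Cdc20), and without control replicates 1, 2 and 3 it was 8, 4 and 7. Over all genes these fits called 1650 to 1965 as higher and 1500 to 1806 as lower, beside 2113 and 1985 with all 6 libraries. In each of these fits the share of members called was below the share of all genes called. E2f7 and Cdc20 were called with each of the 6 libraries left out.

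The wider pathway was read from lists of 60 other replication genes and 85 other mitotic genes, all of which were tested. Of the other replication genes, 19 fell, 1 rose and 40 did not pass (33.3% called), with a median log2 fold change of -0.18 and values below 0 for 53 of 60. Of the other mitotic genes, 19 fell, 4 rose and 62 did not pass (27.1% called), with a median of -0.13 and values below 0 for 73 of 85. Over all genes tested 29.6% were called, 14.3% as lower and 15.3% as higher, so both total shares called were near the background. By direction the lists differed from it: most of their calls were falls, whereas over all genes falls and rises were about as frequent. These genes too varied together between libraries: p63KO replicate 1 was the lowest of its group for 86.7% of the replication list and 77.6% of the mitotic list. Their signs and calls are therefore not separate observations. No gene of either list changed by as much as 2-fold. Without p63KO replicate 1 the medians were -0.12 and -0.09. The number of other mitotic genes that fell was 9 without that library, without control replicate 2 or without p63KO replicate 3. Over all genes, 1647, 1743 and 1500 fell in these fits, in that order, beside 1985 with all 6 libraries.

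**Figure D4:**
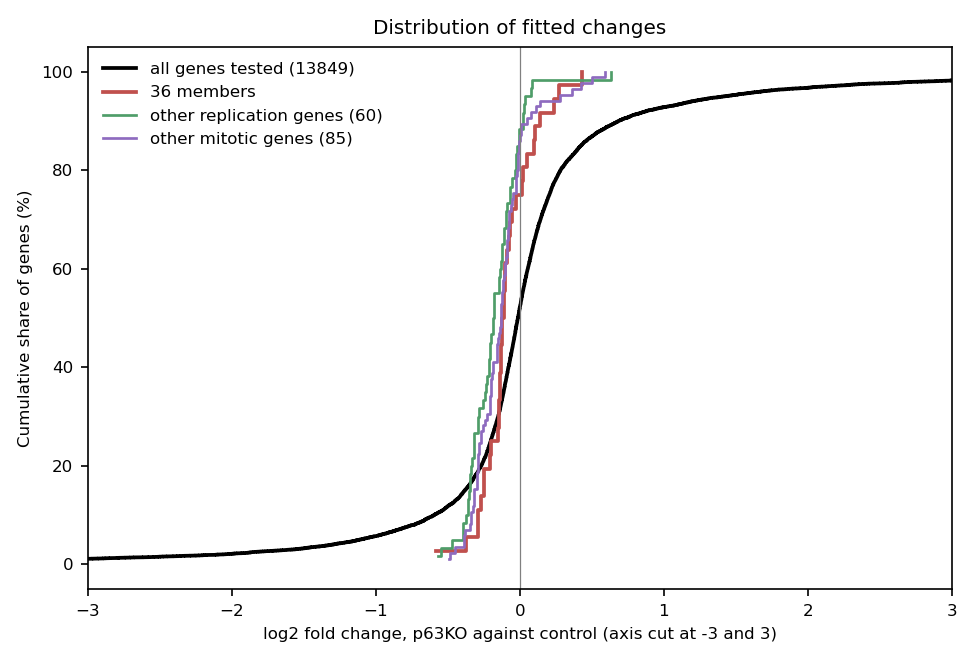
Cumulative share of genes (vertical axis, percent) by log2 fold change of p63KO against control (horizontal axis, cut at -3 and 3). The curves of the 36 members and of the 60 and 85 other pathway genes lie wholly between -0.58 and 0.63 and sit left of the curve of all 13849 genes around 0.

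Polymerase and primase genes had the largest count of falls among the replication families: 6 of 9 fell, 0 rose, and the median was -0.32, beside 14.3% of all genes tested called lower and a median of -0.01. A family of this size was not tested as a set, and the families were compared after their values were seen. Pole, the catalytic subunit of the leading-strand polymerase, was 138, 149 and 152 CPM in control and 95.5, 108 and 114 CPM in p63KO and fell to 72.2% of control (log2 fold change -0.47, SE 0.08, edgeR adjusted p = 0.00158). Pold1, its counterpart of the lagging strand, was 137, 139 and 129 CPM in control and 107, 109 and 99.4 CPM in p63KO and fell to 77.8%, and Rfc3, a clamp loader subunit, fell to 76.0% from 79.7 ± 1.40 CPM. In origin licensing 1 of 10 fell: Cdt1, which loads the MCM ring onto DNA, was 117, 108 and 106 CPM in control and 77.3, 72.7 and 77.3 CPM in p63KO and fell to 68.6% (log2 fold change -0.54, SE 0.07, edgeR adjusted p = 0.000243). The groups of these 4 genes, which were named for their low p, were apart in each case, beside 44.1% of all genes tested. Chromatin assembly and fork protection genes fell in 4 of 7, lagging-strand genes in 2 of 4, helicase activation genes in 2 of 7, clamp loader and single-strand binding genes in 2 of 8, and nucleotide supply genes in 0 of 4.

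Among the other E2F, DP and pocket protein genes, changes ran in both directions. Rbl1, the pocket protein p107, was 137, 139 and 138 CPM in control and 83.9, 96.5 and 100.0 CPM in p63KO, and fell to 67.6% of control (log2 fold change -0.57, SE 0.07, edgeR adjusted p = 0.000394). E2f5, an E2F that works with pocket proteins, was 29.9, 33.1 and 37.6 CPM in control and 47.3, 55.3 and 53.2 CPM in p63KO and rose to 154.8% (log2 fold change 0.63, SE 0.10, edgeR adjusted p = 0.00141). Neither pair of groups overlapped, and both genes were named for their low p. E2f6 also fell, and the other 8 of the 11 E2F, DP and pocket protein genes did not pass. The share called was 27.3%, near the 29.6% of all genes tested. The retinoblastoma gene Rb1 itself was at -0.02 (95% interval -0.29 to 0.24).

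Among the other mitotic genes, the 4 that rose were Mad2l1, Spc25, Cep55 and Cdc25b. Mad2l1, the checkpoint protein that holds Cdc20 inactive, was 109, 124 and 127 CPM in control and 164, 180.4 and 198 CPM in p63KO and rose to 150.7% of control (log2 fold change 0.59, SE 0.09, edgeR adjusted p = 0.00079), opposite in direction to Cdc20. Spc25 of the outer kinetochore rose to 141.7%, Cep55 of the abscission machinery to 134.3%, and the phosphatase gene Cdc25b, which opens mitosis, to 121.2%. Wee1, the kinase that opposes Cdc25 at mitotic entry, was 105, 103 and 122 CPM in control and 74.1, 82.3 and 78.4 CPM in p63KO and fell to 71.2% (log2 fold change -0.49, SE 0.08, edgeR adjusted p = 0.00159). Ncaph2, a condensin II subunit, was 192, 193 and 182 CPM in control and 137, 135 and 133 CPM in p63KO and fell to 71.5% (edgeR adjusted p = 0.000163). Ckap2l, a spindle protein, Incenp, the scaffold of the passenger complex, and Aspm, a spindle pole protein, fell to 73.2%, 76.9% and 76.3%. In each of these 9 genes the groups were apart, beside 44.1% of all genes tested. The 15 pathway genes given here with values past the test, from Pole to Aspm, were named for the lowest p of their list and direction. That choice favours calls that last, and all 15 kept theirs with each library left out. The lists as a whole were less stable: 19 other mitotic genes fell with all 6 libraries, and 9 to 18 with 1 left out.

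**Figure D5:**
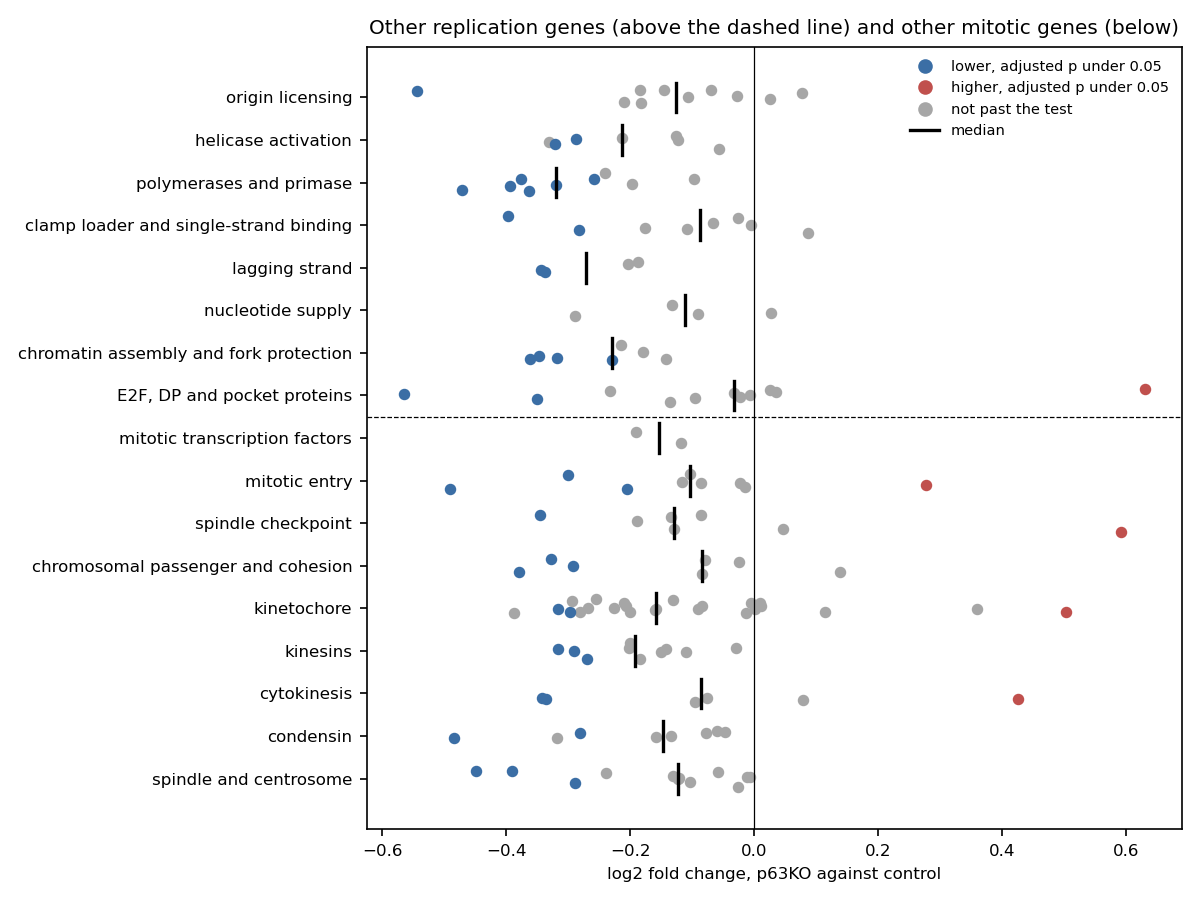
Log2 fold change of p63KO against control (horizontal axis) for each gene of the wider lists, by family; points are genes, black bars are medians, blue and red mark genes past the edgeR test. Polymerases have the lowest family median (-0.32), and the 5 red points are E2f5, Cdc25b, Mad2l1, Spc25 and Cep55.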

How the data were processed

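RNA-seq of 3 control and 3 p63KO libraries was analysed from 1 table of raw counts per gene symbol, which the authors deposited as whole numbers with no normalization. The submitters' processing notes name build mm9, TopHat2 2.1.0, bcl2fastq 1.8.4 and DESeq2 without a version. No read counter, annotation or strand setting was named (not given in the sources used here), which leaves reads shared by overlapping genes or near-identical copies uncertain. Column names matched the sample descriptions. Total counts were 13335328 to 20093838 per library, and replicates differed by more than counting noise in each case (chi-square per degree of freedom 7.87 to 16.1).

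In R 4.3.3, edgeR 4.0.16 filtered genes with filterByExpr (minimum count 10, minimum total 15), which kept 13849 genes, scaled libraries by TMM and compared the groups by its quasi-likelihood test with no covariate. A gene was called at a Benjamini-Hochberg adjusted p under 0.05, adjusted across the whole table. Each SE is the fold change over the root of its F value, and 95% intervals used the fit's degrees of freedom and are not adjusted for the number of genes. The procedure was tested on simulated data. The members and lists were chosen with earlier results of these data known. Per-library values are given for members past the test, the 3 with the lowest p of the others in each class and the 3 most abundant of each class; from the wider lists, the 5 lowest p per list and direction are named. E2f6 and Rb1, and the genes named in the closing section, were chosen after their values were seen. Alternatives were DESeq2 1.42.0, limma-voom (limma 3.58.1), 3 other scalings, 2 other filters, robust dispersions, a replicate block, tables without haemoglobin and sex-linked genes, fits leaving out 1 library, and 2 stricter thresholds. Promoter windows are RefSeq's on GRCm38.p6, with exons from GENCODE M21 of the same build; no coordinate was compared with mm9.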

Additional observations from a re-analysis of the deposited data

How the results depend on the processing

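The median log2 fold changes kept their sign in each alternative, between -0.16 and -0.08 for replication genes and between -0.16 and -0.06 for mitotic genes, the ends coming from libraries left out. Of the 648 single-gene values of the members under alternatives, 572 kept direction and call, 54 lost the call, 13 gained it and 9 changed sign, all 9 in genes that did not pass: Mcm7 without control replicate 3, Cdk1 without control replicate 1, Ccnb1 and Top2a without control replicate 1 or p63KO replicate 3, and Bub1b with library totals only (0.0102), without control replicate 3 or without p63KO replicate 1. With 1 library left out their log2 fold changes ranged from -0.1086 to 0.018 for Mcm7, from -0.018 to 0.1095 for Cdk1, from -0.0595 to 0.0684 for Ccnb1, from -0.0818 to 0.0279 for Bub1b and from -0.0338 to 0.0794 for Top2a.

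The number of replication genes that rose was 2 with DESeq2, RLE, upper-quartile factors, library totals, robust dispersions, the replicate block and haemoglobin and sex-linked genes removed, Ccne1 being the gene added. It was 0 to 2 with 1 library left out, and 1 to 5 fell. Of the mitotic genes, 1 fell with upper-quartile factors or library totals, 1 to 2 fell and 0 to 1 rose with 1 library left out. At an adjusted p under 0.01, 0 replication genes rose and 1 fell (E2f7), and 0 mitotic genes rose and 1 fell (Cdc20). At that threshold 12 other replication genes fell and 1 rose, and 6 other mitotic genes fell and 4 rose. Of all genes, 1353 rose and 1227 fell. With at least 1.5-fold required, 0 members rose or fell, and 0 other replication and 0 other mitotic genes fell. There, 1 other replication and 1 other mitotic gene rose, and 1298 of all genes rose and 1085 fell. With 1 library left out, 15 to 19 other replication and 9 to 18 other mitotic genes fell, beside 1500 to 1806 of all genes.

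Same-numbered libraries of the groups deviated together with r = 0.22, 0.28 and 0.06 for numbers 1, 2 and 3 across genes, each library correlating best with its own number. The labels do not say that a number marks a shared litter. With the replicate block, 29 other replication genes fell in place of 19 and 28 other mitotic genes in place of 19. In the same fit 13 members were called in place of 9, Mcm3, Pcna, Ccne1 and Cdk2 being added. Calls grew over the whole table too: of 13849 genes, 2397 rose in place of 2113 and 2381 fell in place of 1985. Members that did not pass are not shown to be equal between the groups. Depth limits the members little: the lowest count was 258.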

Other observations

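Within the NDC80 complex, the outer kinetochore unit that grips microtubules, 1 of 4 genes rose, beside 15.3% of all genes tested. Spc25 was 75.4, 85.7 and 84.8 CPM in control and 102, 123 and 124 CPM in p63KO, without overlap, and its fitted change was 0.50 on the log2 scale (95% interval 0.30 to 0.71, edgeR adjusted p = 0.00286). Its partner Spc24 was 49.2, 45.1 and 42.3 CPM in control and 47.2, 46.2 and 43.2 CPM in p63KO, overlapping, at 0.00 (95% interval -0.18 to 0.18). Ndc80 and Nuf2, the other two subunits, were at -0.20 (-0.41 to 0.01) and -0.21 (-0.43 to 0.01), and neither passed the test. The set was looked at after the value of Spc25 was seen, and the difference between subunits was not tested.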
